A study of Mus musculus with 10 samples.

Results

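The genes of the unfolded protein response and of protein folding in the endoplasmic reticulum (ER) were followed in brainstem and spinal cord tissue of newborn Nkx2.2-/- mice, in which the gene of the transcription factor Nkx2.2 is disrupted. The members were 36 named genes, and every probe set annotated to any of them was taken, which gave 90 of the 45037 non-control probe sets of the array and 36 of its 18193 genes. All 36 genes had a probe set, 35 under their listed symbol. Ero1l was found as Ero1a, its RefSeq symbol, and is called Ero1a here. For 9 of the genes there was 1 probe set and for 27 there were several, up to 6 for Sec61a1. A probe set of Sec61b also carries the symbol of another gene, so 89 of the 90 name 1 gene. The genes were split into 16 chaperones and folding enzymes, 5 sensors and transcription factors, 5 outputs of the ATF4 and CHOP arm, and 10 genes of degradation and translocation, the last 2 classes being the stress-induced factors.

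The groups were 5 wild-type mice, numbered 14, 15, 16, 18 and 21, and 5 Nkx2.2-/- mice, numbered 11, 12, 22, 29 and 43, all of strain C57BL/6 and taken 1.5 to 2 days after birth. The tissue was cut out of frozen 20 µm sections of each brain and held the pons, the medulla and the rostral end of the spinal cord, and 1 array was hybridised per mouse. The labels give no more of the allele than the genotype, and each mouse is counted as a replicate, with no account of litters. The comparison asks which of these transcripts differ between the genotypes. In bulk tissue, fewer cells of a type and less RNA per cell cannot be told apart.

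Secreted and membrane proteins are folded in the ER. When unfolded proteins build up there, 3 sensors in the ER membrane respond. IRE1 (Ern1) splices the mRNA of Xbp1, ATF6 is cut to release a transcription factor, and PERK (Eif2ak3) slows translation while favouring that of Atf4. Spliced XBP1 and cut ATF6 raise chaperones and degradation factors, whereas ATF4 and CHOP (Ddit3) raise genes of amino acid supply and, under lasting stress, of cell death. Cells that make much membrane, such as myelinating oligodendrocytes, depend on this machinery. The splicing of Xbp1 and the cutting of ATF6 are not read by these arrays, which measure the amount of each transcript.

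The deposited values are log2 expression from RMA, with array medians from 5.07 to 5.12. Nkx2-2 itself read 6.42 to 6.88 in wild type and 4.24 to 4.73 in Nkx2.2-/- mice (log2 change -2.05, limma adjusted p = 3.5e-05). The Gapdh control signal near the 5 prime end of the transcript was weak on wild-type replicate 14 and on Nkx2.2-/- replicate 43, with 3 prime minus 5 prime differences of 2.13 and 3.78 against -0.32 to 0.13 on the other 8 arrays. The neuronal markers, 10 of 10 measured, had means of 10.16 to 10.24 in wild type and 9.997 to 10.4 in Nkx2.2-/- mice, and 9 hindbrain Hox genes 6.22 to 7.16 and 6.33 to 7.28. The mean of 16 markers of myelinating oligodendrocytes was 6.32 to 6.57 in wild type and 5.82 to 5.99 in Nkx2.2-/- mice.

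None of the 90 member probe sets and none of the 36 genes differed between the genotypes after Benjamini-Hochberg adjustment over all probe sets or all genes (limma, lowest adjusted p = 0.9997 and 0.9996). The test called 0.0511% of all probe sets and 0.0605% of all genes. At an unadjusted p under 0.05, 6 member probe sets were lower in Nkx2.2-/- mice and 0 were higher, against 2.35% and 1.08% of all probe sets, and over genes the counts were 4 and 0, against 2.71% and 0.517%. All 6 belonged to chaperones and folding enzymes, 3 of them to Calr and the others to Manf, Pdia3 and Sdf2l1. In place of 6, the count was 1 when wild-type mouse 18 was left out, against 1.68% of all probe sets, and 3 when Nkx2.2-/- mouse 11 was, against 2.2%. It was 10 when wild-type mouse 21 was left out, against 2.16%, and 11 when Nkx2.2-/- mouse 29 was, against 2.87%. With arrays weighted by their quality it was 14, against 4.25%. In 0 of the 90 member probe sets did the genotypes separate without overlap, where 0.442% of all probe sets did so with Nkx2.2-/- lower and 0.315% with Nkx2.2-/- higher. Over genes those shares were 0.528% and 0.154%.

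The sizes were small. Log2 changes, Nkx2.2-/- minus wild type, ran from -0.30 to 0.12 over the 90 probe sets, with a median of -0.02 against 0.0010 over all probe sets, and 59 of the 90 lay below 0, against 49.2% of all. With single mice left out, the median over the 89 that name 1 gene ran from -0.05 (without Nkx2.2-/- replicate 43) to -0.02 (without Nkx2.2-/- replicate 22). Over the 90 it was -0.05 without Nkx2.2-/- replicate 29 and with the Gapdh difference as a covariate. In all 90 the 95% interval of the change lay within -1 and 1 on the log2 scale, that is within a change of 2-fold, and in 79 it lay within -0.5 and 0.5. The widest intervals reached -0.74 and 0.58, both in 1 probe set of Canx. By class, the median over probe sets was -0.10 for chaperones and folding enzymes, -0.00043 for sensors and transcription factors, 0.01 for the ATF4 and CHOP arm and -0.0058 for degradation and translocation. The last 3 medians turned sign with 1 mouse left out, with ranges of -0.03 to 0.01 for sensors (without Nkx2.2-/- replicates 43 and 22), -0.01 to 0.02 for the ATF4 and CHOP arm (without Nkx2.2-/- replicate 22 and wild-type replicate 21) and -0.03 to 0.02 for degradation and translocation (without Nkx2.2-/- replicate 29 and wild-type replicate 14). Counting each gene by the probe set of its highest mean, 15 of 16, 2 of 5, 2 of 5 and 7 of 10 genes of these classes had a change below 0, against 53% of all genes. Among the brighter part of all genes that share was 59.0%, and among the 32 members there it was 78.1%. The members in the dimmer part were Sdf2l1, Atf6, Trib3 and Derl3.

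**Figure D1:**
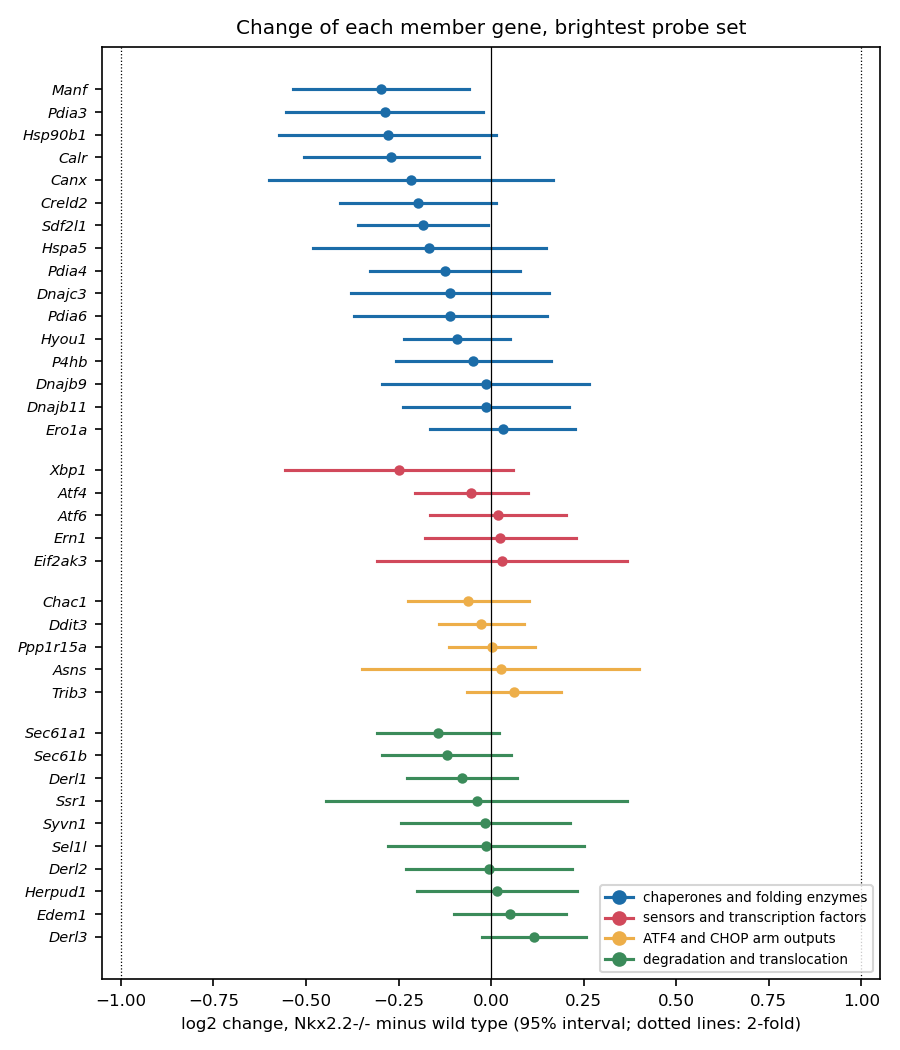
Log2 change (Nkx2.2-/- minus wild type, horizontal axis) of each of the 36 genes by its brightest probe set, with 95% intervals from limma, n = 5 mice a genotype, coloured by class. All intervals lie inside the dotted lines at -1 and 1, and 15 of the 16 chaperones and folding enzymes lie left of 0.

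The chaperones and folding enzymes include many genes whose promoters carry the ER stress response element (ERSE), the sequence bound by NF-Y together with cut ATF6. In the RefSeq promoter windows of assembly GRCm38.p6, 31 of the 36 members had an entry and Manf, Derl1, Hyou1, Sec61a1 and Atf6 had none. The 250 bases before the annotated start were searched on both strands. The motif, written as CCAAT, then 9 bases of any kind, then CCACG, was found in 9 of the 31 members and in 0.113% of all 32851 windows. Only exact matches were counted, so sequences that differ from these letters were left out. The 10 matches are shown because 7 of the 9 genes are chaperones or folding enzymes, in the orientation of the motif, with the fixed letters in capitals.

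Hspa5: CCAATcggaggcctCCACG
Hsp90b1, farther from the start: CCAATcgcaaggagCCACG
Hsp90b1, nearer the start: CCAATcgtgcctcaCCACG
Calr: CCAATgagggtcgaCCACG
Canx: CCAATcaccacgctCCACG
Creld2: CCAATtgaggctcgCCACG
Pdia6: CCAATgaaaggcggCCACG
Dnajc3: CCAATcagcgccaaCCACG
Syvn1: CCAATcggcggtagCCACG
Derl3: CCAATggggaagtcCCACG

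These lie at chr2:34772025-34772043 for Hspa5, chr10:86705638-86705656 and chr10:86705533-86705551 for Hsp90b1, chr8:84847075-84847093 for Calr, chr11:50325800-50325818 for Canx and chr15:88819520-88819538 for Creld2. The others are at chr12:17266491-17266509 for Pdia6, chr14:118937827-118937845 for Dnajc3, chr19:6046532-6046550 for Syvn1 and chr10:75893242-75893260 for Derl3. The match of Hspa5 runs from 65 to 47 bases before the start, and that of Calr, on the opposite strand, from 162 to 144 bases before it. Between the fixed letters the 9 variable bases differ from gene to gene. The whole windows of 3 genes follow, 5′ to 3′ on the strand of the gene, with the fixed letters of each match in capitals. On the opposite strand these letters read CGTGG and ATTGG. The windows are chr2:34771840-34772089 (plus strand) for Hspa5, chr10:86705445-86705694 (minus strand) for Hsp90b1 and chr8:84846932-84847181 (minus strand) for Calr.

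Hspa5: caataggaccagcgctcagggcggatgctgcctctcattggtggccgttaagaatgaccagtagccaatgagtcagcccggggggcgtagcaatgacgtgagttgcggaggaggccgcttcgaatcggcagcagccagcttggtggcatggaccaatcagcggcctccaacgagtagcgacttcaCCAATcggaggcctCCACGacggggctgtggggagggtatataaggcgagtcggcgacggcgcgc
Hsp90b1: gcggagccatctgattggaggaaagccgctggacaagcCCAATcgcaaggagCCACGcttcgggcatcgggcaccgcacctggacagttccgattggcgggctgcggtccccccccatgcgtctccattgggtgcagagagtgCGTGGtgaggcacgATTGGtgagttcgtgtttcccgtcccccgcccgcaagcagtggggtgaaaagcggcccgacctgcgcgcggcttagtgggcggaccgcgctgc
Calr: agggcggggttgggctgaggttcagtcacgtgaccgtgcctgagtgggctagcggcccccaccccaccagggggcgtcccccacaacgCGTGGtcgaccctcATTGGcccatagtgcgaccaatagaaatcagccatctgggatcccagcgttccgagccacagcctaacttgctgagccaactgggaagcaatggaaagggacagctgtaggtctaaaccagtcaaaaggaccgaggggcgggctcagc

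Of the 14 chaperones and folding enzymes with a window, 7 held an exact match to the motif and 7 did not. Changes were below 0 in 7 of the 7 with it and in 6 of the 7 without it, against 53% of all genes. Of these, 1 with it and 2 without it were lower at an unadjusted p under 0.05 (limma), against 2.71% of all genes. The median was -0.20 with the motif, with a range of -0.28 to -0.11, and -0.05 without it, from -0.29 for Pdia3 to 0.03 for Ero1a. Outside the chaperones the motif was in Syvn1 and Derl3, with changes of -0.02 and 0.12. Among genes of the array that are not members, 10 held the motif, 2 of them had a change below 0 and their median was 0.04. The motif was thus found in genes with changes of both signs, and these counts are a description without a test.

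**Figure D2:**
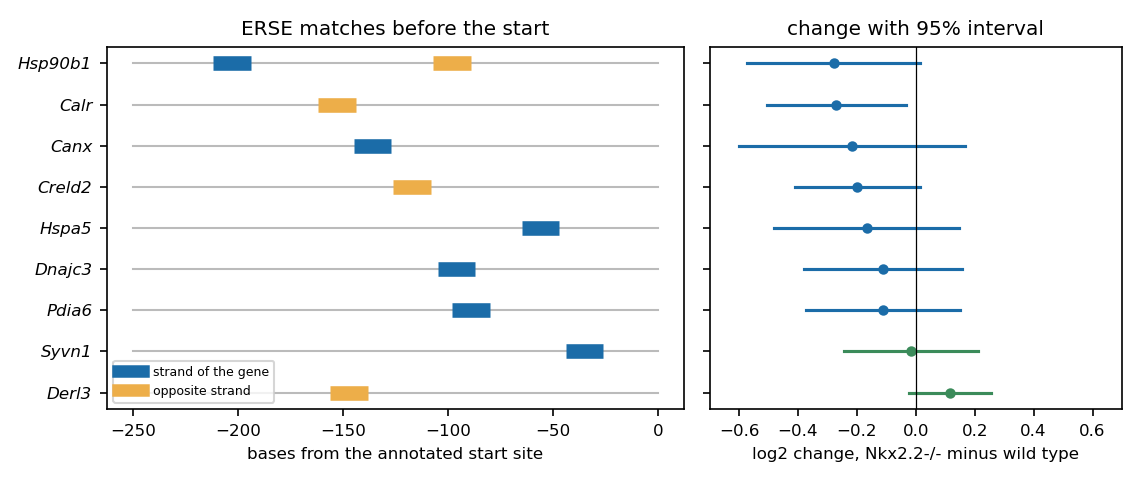
Left, position of each ERSE match in the 250 bases before the annotated start (horizontal axis, bases from the start) in the 9 genes that hold it, with blue for the strand of the gene and yellow for the opposite strand. Right, log2 change with its 95% interval, in blue for the 7 chaperones and folding enzymes and in green for Syvn1 and Derl3, with Hsp90b1 at -0.28 and Derl3 at 0.12 as the extremes.

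Calr and Canx encode the lectin chaperones calreticulin and calnexin, which hold newly made glycoproteins, and Pdia3 is the disulfide isomerase that works with them. Calr read 10.06, 10.17, 10.26, 10.31 and 10.04 in wild-type replicates 14, 15, 16, 18 and 21, and 9.75, 9.91, 9.93, 10.26 and 9.64 in Nkx2.2-/- replicates 11, 12, 22, 29 and 43. Of the Nkx2.2-/- mice 4 lay below every wild-type mouse, and replicate 29 lay among the highest wild-type values, so the groups overlapped. Wild type averaged 10.2 ± 0.12 and Nkx2.2-/- 9.90 ± 0.236 (SD, n = 5 each), and the log2 change was -0.27 (SE 0.107, 95% interval -0.51 to -0.03), or 1.21-fold lower (limma, unadjusted p = 0.0289, adjusted p = 0.9996). Its other probe sets gave -0.27 and -0.29, so all 3 were close in size. Without Nkx2.2-/- replicate 29, all 3 probe sets of Calr separated the genotypes, with log2 changes of -0.36, -0.36 and -0.39, and the lowest adjusted p of a member probe set was then 0.483 (limma). Creld2 was the other of 4 separated probe sets, against 0.83% of all. Leaving out the highest mouse of a group favours such a separation.

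Pdia3 read 7.65, 7.6, 7.84, 7.65 and 7.44 in the wild-type mice and 7.49, 7.51, 7.0, 7.61 and 7.12 in the Nkx2.2-/- mice, in the same order of replicates, which is kept from here on. The lowest values were those of Nkx2.2-/- replicates 22 and 43, and the other 3 lay within the wild-type range. The log2 change was -0.29 (SE 0.121, 95% interval -0.55 to -0.02, limma unadjusted p = 0.0369), and the dimmer probe set gave -0.10. Canx had changes of -0.22, -0.08 and -0.07 over its 3 probe sets. In the brightest, Nkx2.2-/- replicates 11, 12 and 22 lay below all wild-type mice while replicate 43, at 9.62, was the highest of all 10.

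Hspa5 encodes BiP, the Hsp70 chaperone of the ER that also keeps the sensors inactive, and Hsp90b1 encodes its Hsp90 chaperone. Hspa5 read 9.19, 8.95, 9.05, 8.96 and 8.74 in wild type and 8.53, 8.53, 8.70, 9.20 and 9.09 in Nkx2.2-/- mice. In this brightest probe set replicates 11, 12 and 22 were thus below every wild-type mouse and replicate 29 above every one. Averages of 8.98 ± 0.168 and 8.81 ± 0.318 (SD, n = 5 each) left a log2 change of -0.17 (SE 0.142, 95% interval -0.48 to 0.15, limma unadjusted p = 0.266). It was -0.26 without replicate 29 and -0.10 without replicate 12. The other probe sets of Hspa5 gave -0.24 and -0.05. In the first of these, replicates 11, 12 and 22 again lay below every wild-type mouse, with replicate 29, at 8.36, inside the wild-type range. In the second no Nkx2.2-/- mouse lay below that range, and replicate 29, at 7.84, was the lowest Nkx2.2-/- mouse. Hsp90b1 read 9.19, 9.0, 9.21, 9.21 and 8.90 in wild type and 8.53, 8.78, 8.55, 9.02 and 9.23 in Nkx2.2-/- mice. In this brighter probe set replicates 11, 12 and 22 again lay lowest, with replicate 43 the highest of all. The dimmer probe set of Hsp90b1 ordered the mice otherwise. There replicates 22, 29 and 43, at 5.88, 6.12 and 6.02, lay below every wild-type mouse. Replicates 11 and 12, at 6.56 and 6.38, lay within the wild-type range. The change was -0.28 by both probe sets (SE 0.133 in the brighter, 95% interval -0.57 to 0.01, limma unadjusted p = 0.0602). It was -0.36 without the 2 arrays with weak 5 prime Gapdh (limma unadjusted p = 0.0114, adjusted p = 0.9996).

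Manf and Creld2 encode small secreted ER proteins induced by ER stress, and Sdf2l1 encodes a partner of BiP in the ER. Manf, with 1 probe set, had the lowest p of all members. It read 8.08, 8.38, 8.05, 8.28 and 8.30 in wild type and 7.83, 7.86, 8.15, 8.14 and 7.63 in Nkx2.2-/- mice, with means of 8.22 ± 0.145 and 7.92 ± 0.223 (SD, n = 5 each). The Nkx2.2-/- mice were all below the wild-type mean, but replicates 22 and 29 lay within the wild-type range. The log2 change was -0.30 (SE 0.107, 95% interval -0.53 to -0.06), or 1.23-fold lower (limma, unadjusted p = 0.0188, adjusted p = 0.9996). Over the alternatives its adjusted p was never below 0.250, the value with array weights.

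For Creld2 the wild-type values were close together, at 6.34, 6.22, 6.23, 6.31 and 6.20, and the Nkx2.2-/- values were spread, at 5.81, 5.90, 6.18, 6.38 and 6.03. All Nkx2.2-/- mice but replicate 29 lay below the wild-type range. The change was -0.20 (SE 0.0958, limma unadjusted p = 0.0639), and without replicate 29 it was -0.28 with no overlap. Sdf2l1, in the dimmer part of all genes, read 5.33, 5.64, 5.70, 5.6 and 5.51 in wild type and 5.34, 5.42, 5.39, 5.53 and 5.19 in Nkx2.2-/- mice. The lowest of each group, replicates 14 (wild type) and 43 (Nkx2.2-/-), were the arrays with weak 5 prime Gapdh. The change was -0.18 (SE 0.0795, limma unadjusted p = 0.0420) with all arrays and -0.19 (SE 0.0601, unadjusted p = 0.00973, adjusted p = 0.9996) without these.

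The other members of the class had changes closer to 0. The disulfide isomerases Pdia4, Pdia6 and P4hb were at -0.12, -0.11 and -0.05, and the dimmer probe sets of Pdia4 and Pdia6 were at 0.00094 and 0.02. The J-domain partners of BiP, Dnajc3, Dnajb9 and Dnajb11, were at -0.11, -0.01 and -0.01, with all 5 probe sets of Dnajc3 between -0.13 and -0.0085. Hyou1, the exchange factor of BiP, was at -0.09, and its other probe sets were at -0.0083 and -0.014. Ero1a, the oxidase that recharges the disulfide isomerases, read 6.55, 6.15, 6.29, 6.35 and 6.20 in wild type and 6.30, 6.27, 6.18, 6.38 and 6.56 in Nkx2.2-/- mice. It was the only gene of the class above 0 by its brightest probe set, at 0.03 (SE 0.0885), and its other probe sets gave -0.05 and 0.06. Its highest value in each group was on the array with weak 5 prime Gapdh, and with the Gapdh difference as a covariate its change was -0.0053.

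**Figure D3:**
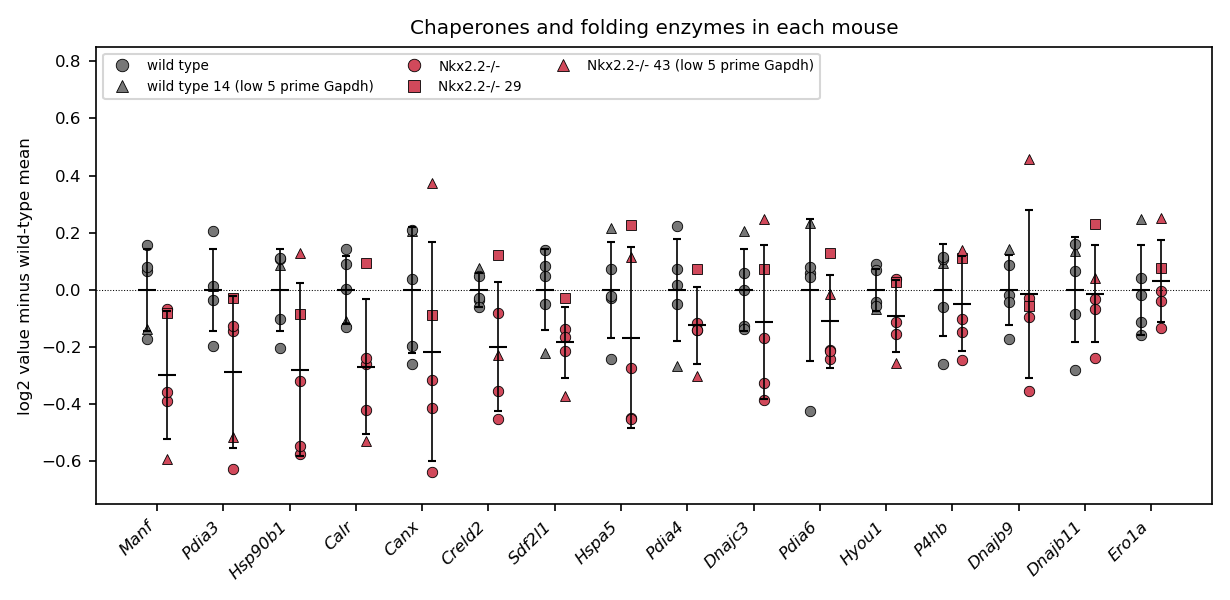
Log2 value minus the wild-type mean (vertical axis) for the 16 chaperones and folding enzymes by their brightest probe sets. Each point is 1 mouse, and bars give the mean and SD of each genotype (n = 5). Nkx2.2-/- replicate 29 (squares) lies near or above 0 in most genes, while Nkx2.2-/- replicate 43 (red triangles) is lowest for Manf and Calr and highest for Hsp90b1 and Canx.

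No sensor passed the test. Ern1 read 5.95, 5.71, 5.65, 5.81 and 5.65 in wild type and 5.77, 5.76, 5.58, 5.71 and 6.08 in Nkx2.2-/- mice, a log2 change of 0.02 (SE 0.0925, 95% interval -0.18 to 0.23). Its 5 probe sets lay between -0.07 and 0.04. Atf6 read 5.93, 5.63, 5.62, 5.80 and 5.64 in wild type and 5.65, 5.70, 5.63, 5.73 and 5.99 in Nkx2.2-/- mice, a change of 0.02 (SE 0.0831, 95% interval -0.16 to 0.20). Eif2ak3 read 6.59, 6.29, 6.33, 6.40 and 6.16 in wild type and 6.17, 6.29, 6.01, 6.55 and 6.91 in Nkx2.2-/- mice, a change of 0.03 (SE 0.153, 95% interval -0.31 to 0.37). In all 3 genes the highest wild-type value was that of replicate 14 and the highest Nkx2.2-/- value that of replicate 43. Without these arrays the changes were -0.000052 for Ern1, 0.0083 for Atf6 and -0.04 for Eif2ak3 (limma unadjusted p = 0.999, 0.885 and 0.700), and the SE of Eif2ak3 was 0.106.

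Of the transcription factors, Xbp1 had the change farthest from 0. It read 8.89, 8.52, 8.61, 8.62 and 8.25 in wild type and 8.14, 8.21, 8.08, 8.68 and 8.53 in Nkx2.2-/- mice. In this brightest probe set Nkx2.2-/- replicates 11, 12 and 22 lay below every wild-type mouse and replicates 29 and 43 among them. In the next brightest only replicate 22, at 7.64, lay below the wild-type range, and in the next after that only replicate 12, at 7.13. The change was -0.25 (SE 0.139, 95% interval -0.56 to 0.06, limma unadjusted p = 0.102), and all 4 of its probe sets were below 0, from -0.25 to -0.02. Atf4 read 8.68, 8.69, 8.58, 8.76 and 8.97 in wild type and 8.61, 8.73, 8.62, 8.76 and 8.68 in Nkx2.2-/- mice. These values overlapped almost fully, with a change of -0.05 (SE 0.0689, 95% interval -0.21 to 0.10).

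The ATF4 and CHOP arm showed no member below an unadjusted p of 0.05, and the means of the class were 6.34 ± 0.0700 in wild type and 6.34 ± 0.0359 in Nkx2.2-/- mice (SD, n = 5 each). Ddit3, which encodes CHOP, read 6.04, 6.13, 6.07, 6.07 and 6.27 in wild type and 6.11, 6.09, 6.12, 6.13 and 6.00 in Nkx2.2-/- mice, a change of -0.03 (SE 0.0520, 95% interval -0.14 to 0.09). Its dimmer probe set had the opposite sign, at 0.07 (SE 0.0477), with means of 4.42 in wild type and 4.49 in Nkx2.2-/- mice. Trib3, a pseudokinase induced by CHOP, read 5.0, 5.22, 5.07, 5.1 and 5.27 in wild type and 5.26, 5.16, 5.23, 5.20 and 5.11 in Nkx2.2-/- mice, a change of 0.06 (SE 0.0574). Chac1, a glutathione-degrading enzyme, read 6.53, 6.53, 6.54, 6.46 and 6.87 in wild type and 6.52, 6.48, 6.64, 6.49 and 6.5 in Nkx2.2-/- mice, a change of -0.06 (SE 0.0744). In each of these 3 genes, by the brightest probe set, wild-type replicate 21 had the highest value of all 10 mice. Ppp1r15a, the phosphatase subunit that restores translation, was at 0.0020 with an interval of -0.12 to 0.12.

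Asns, asparagine synthetase, varied more between mice than the other outputs of the arm. It read 8.34, 7.63, 7.71, 7.68 and 7.63 in wild type and 7.67, 7.63, 7.59, 7.90 and 8.33 in Nkx2.2-/- mice. The arrays with weak 5 prime Gapdh thus stood above the rest in both genotypes, and the change of 0.03 (SE 0.169) became 0.04 (SE 0.0696) without them. The dimmer probe set of Asns gave -0.08 with all arrays. The composite element through which ATF4 and its partners raise such genes was searched by the letters TGATGNAA, found in 3.45% of all windows. Among the 31 members with a window it was in Asns (TGATGaAA, chr6:7693225-7693232), Chac1 (TGATGcAA, chr2:119351049-119351056) and Herpud1 (TGATGcAA, chr8:94386317-94386324). These matches are shown because they include 2 genes of the arm, and the 3 genes had changes of 0.03, -0.06 and 0.02. Herpud1 also held ATTGGgCCACG at chr8:94386377-94386387, a match to ATTGG, 1 base of any kind, then CCACG, the shorter form of the ER stress element, which was in 0.0304% of windows. The letters TGACGTGG, bound by XBP1, were in no member window and in 0.563% of all.

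The genes of degradation and translocation had changes of both signs. The translocon subunits Sec61a1 and Sec61b were at -0.14 (SE 0.0747, limma unadjusted p = 0.0836) and -0.12 (SE 0.0787, unadjusted p = 0.156). Sec61a1 read 8.39, 8.46, 8.27, 8.52 and 8.48 in wild type and 8.36, 8.19, 8.33, 8.44 and 8.09 in Nkx2.2-/- mice, and its 6 probe sets ranged from -0.14 to 0.0091. Sec61b read 8.69, 8.89, 8.65, 8.94 and 8.95 in wild type and 8.77, 8.63, 8.74, 8.85 and 8.53 in Nkx2.2-/- mice, and its other probe set was at -0.0086. Of both genes 3 wild-type mice lay above every Nkx2.2-/- mouse, and the other wild-type mice lay among them. Ssr1, a subunit of the translocon-associated complex, was at -0.04 and spread widely, from 8.08 to 8.89 in wild type and 7.98 to 8.89 in Nkx2.2-/- mice, with both arrays with weak 5 prime Gapdh at the top. A dim probe set of Ssr1 separated the genotypes when those arrays were left out (log2 change -0.14, limma adjusted p = 0.9998), where 1.41% of all probe sets did so in that direction.

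The members that mark and export misfolded proteins for destruction differed in sign. Derl3, a channel component of ER-associated degradation, had the largest positive change of all members, at a level in the dimmer part of all genes. It read 5.07, 5.05, 5.15, 4.93 and 4.97 in wild type and 5.15, 5.21, 5.30, 5.0 and 5.1 in Nkx2.2-/- mice, a change of 0.12 (SE 0.0634, 95% interval -0.02 to 0.26, limma unadjusted p = 0.0940). Without Nkx2.2-/- replicate 29 it was 0.15 (limma unadjusted p = 0.0273, adjusted p = 0.9999). Only replicates 12 and 22 exceeded the wild-type range. Its relatives Derl1 and Derl2 were at -0.08 and -0.0064, but the other probe set of Derl2 was at -0.20. Herpud1, which links the ligase complex to its substrates, was at 0.02, Edem1, a lectin that picks out glycoproteins, at 0.05, and the ligase Syvn1 and its partner Sel1l at -0.02 and -0.01. Of the 5 probe sets of Sel1l 4 were above 0, up to 0.12, and the other probe set of Syvn1 was at -0.09.

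Other genes of the same pathways, from lists that hold none of the members, were read in the same way. Of 29 genes of ER folding and glycosylation 25 had a change below 0, against 53% of all genes and 59.0% of the brighter part. Their median was -0.09, and 0 passed (limma adjusted). At an unadjusted p under 0.05, 4 were lower, against the 2.71% of all genes given above. They were Cnpy2 at -0.33 (SE 0.0868, limma unadjusted p = 0.00290, adjusted p = 0.899), an ER-resident saposin-like protein, and Ostc at -0.22 and Stt3a at -0.17, both of the oligosaccharyltransferase, with Prdx4, the ER peroxiredoxin. Of 19 genes of translocation and signal peptide cleavage 17 were below 0, with a median of -0.05 and 0 at an unadjusted p under 0.05. Sec11c, a signal peptidase subunit, was at -0.14. Of 16 further genes of ER-associated degradation 10 were below 0 (62.5%, median -0.01). The counts were 20 of 30 further ATF4 targets (66.7%, median -0.04) and 10 of 17 further regulators (58.8%, median -0.03), shares closer to those of all genes. Only Cebpb, a transcription factor induced with CHOP, had an unadjusted p under 0.05 among these 63 genes, at -0.26 (limma unadjusted p = 0.0129). In all 5 lists 0 genes passed the adjusted test.

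The mice of 1 genotype did not act as a block. For the 16 chaperones and folding enzymes the mean level was 7.76, 7.68, 7.76, 7.77 and 7.56 in wild-type replicates 14, 15, 16, 18 and 21, and 7.45, 7.51, 7.43, 7.76 and 7.64 in Nkx2.2-/- replicates 11, 12, 22, 29 and 43. Replicates 11, 12 and 22 were below all wild-type mice and replicates 29 and 43 within their range. Over all 36 genes, replicates 11, 12 and 22 were below the wild-type mean in 31, 32 and 30, replicate 43 in 17 and replicate 29 in 9. The same shares over all genes were not counted, so these counts cannot set the members apart from other genes of the same mouse. Replicate 29 was the highest Nkx2.2-/- mouse in 16 of the 36, against 22.7% of all genes. Without it 8 member genes were lower at an unadjusted p under 0.05, against 3.44% of all genes, and 1, Derl3, was higher, against 1.03%. With it 4 were lower and 0 higher. The chaperone median over probe sets, -0.10 with all mice, was -0.15 without replicate 29, -0.06 without replicate 22 and -0.07 without wild-type replicate 14.

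**Figure D4:**
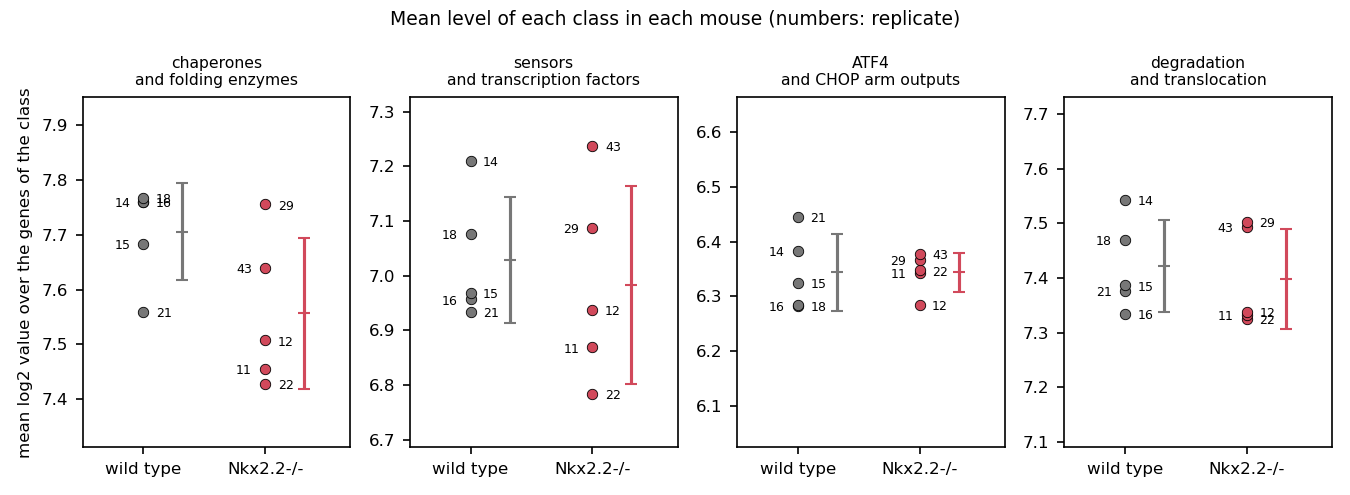
Mean log2 value over the genes of each class (vertical axis, the same span in each panel) in each mouse, numbered by replicate, with mean and SD of each genotype beside the points. Replicates 11, 12 and 22 are lowest for chaperones, from 7.43 to 7.51, and replicates 14 and 43 are highest for sensors, at 7.21 and 7.24.

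Arrays with weak 5 prime Gapdh stood at the edge of many members. In 11 of 36 genes wild-type replicate 14 and Nkx2.2-/- replicate 43 were each the highest of their group, against 18.5% of all genes. These were Dnajb9, Ero1a, Dnajc3, Ern1, Eif2ak3, Atf6, Asns, Ssr1, Edem1, Derl2 and Herpud1. In 7, Pdia4, Sdf2l1, Hyou1, Ddit3, Trib3, Ppp1r15a and Syvn1, both were the lowest, against 11% of all genes. When both were left out, 9 member probe sets and 4 genes were lower at an unadjusted p under 0.05, against 3% of all probe sets and 2.97% of all genes, and 0 passed the adjusted test (limma). The 4 genes were Manf, Sdf2l1, Hsp90b1 and Canx, of which Manf and Sdf2l1 were also among the 4 with all arrays. Calr (-0.23, limma unadjusted p = 0.0513) and Pdia3 (-0.23, unadjusted p = 0.111) were no longer among them. Then 58 of 90 probe sets and 27 of 36 genes lay below 0, against 50.1% and 52.9% of all. The median over the probe sets of the chaperones was -0.10 with and without them, and -0.12 with the Gapdh difference as a covariate. Under that covariate all 16 chaperones by their brightest probe sets had a change below 0, with a median of -0.16, against -0.15 without the covariate, and 11 member probe sets were lower at an unadjusted p under 0.05, against 3.21% of all.

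Markers of other cells also varied with the mice. The mean of 16 meningeal and fibroblast markers was 6.08 to 7.33 in wild type and 6.25 to 6.70 in Nkx2.2-/- mice, with 15 of 16 changes below 0. With it as a covariate the chaperone median was -0.06 and 0 member probe sets were lower at an unadjusted p under 0.05, against 1.89% of all. The mean of 19 proliferation markers was 5.81 to 6.36 and 5.41 to 5.90, with 19 of 19 changes below 0, and with it as a covariate the chaperone median was -0.10 and 1 member probe set was lower, against 1.76% of all. For 10 caudal Hox genes the means were 4.88 to 5.0 and 4.97 to 5.36, with 10 of 10 changes above 0, and the chaperone median was -0.06 with them as a covariate. For 10 choroid plexus markers the means were 5.41 to 6.70 and 5.14 to 6.52, with 8 of 10 changes below 0, and for 14 cerebellar markers 6.17 to 7.23 and 5.99 to 7.0, with 13 of 14. The chaperone median was -0.10 with the cerebellar list as a covariate and -0.08 with a covariate for sex. The mean of the 16 oligodendrocyte markers, with 15 of 16 changes below 0, separated the genotypes. Single markers such as Mal and Opalin overlapped, and 6 of the 16 passed the adjusted test (limma). Within each marker list used as a covariate nearly all changes had the same sign. The fits with these lists therefore cannot tell cell content from genotype. The part of any of these cell types, oligodendrocytes and choroid plexus included, in the chaperone values was not tested.

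**Figure D5:**
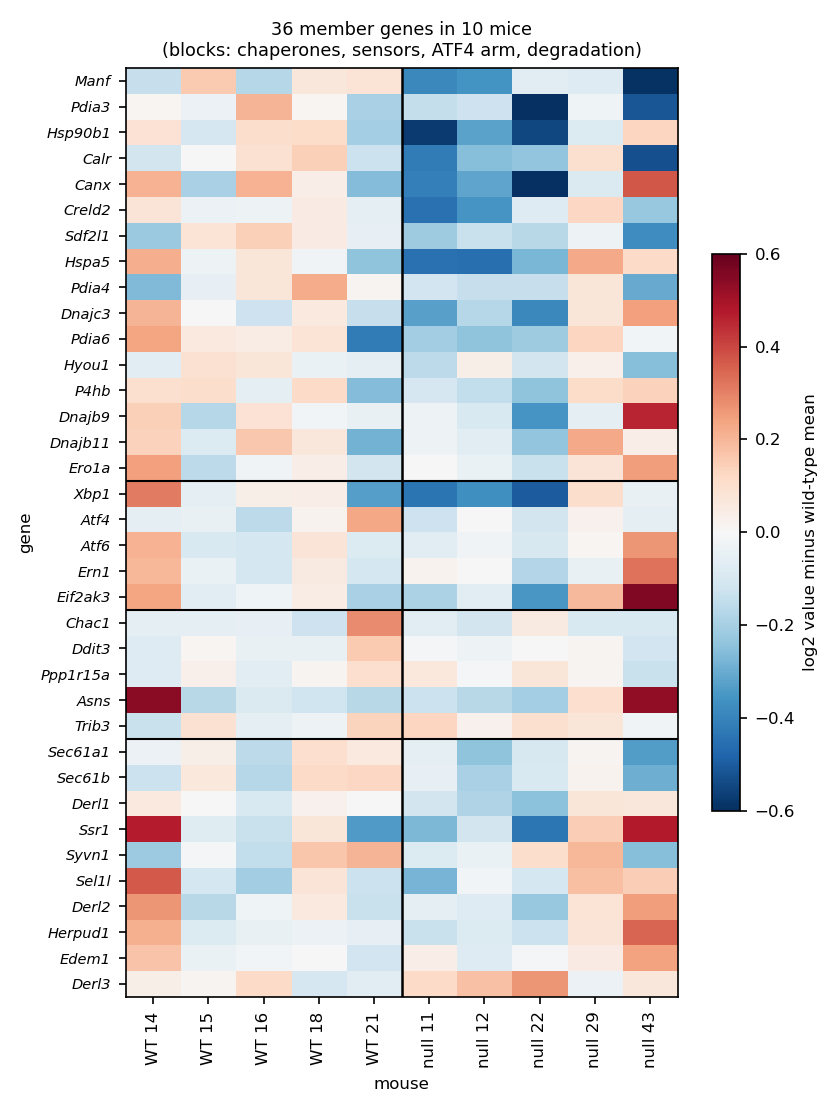
Log2 value minus the wild-type mean of the gene (colour, blue lower and red higher) for the 36 genes (rows, by class) in the 10 mice (columns, wild type left of the line). The outer columns, wild-type replicate 14 and Nkx2.2-/- replicate 43, share their highest values in genes such as Asns and Ssr1, and Nkx2.2-/- replicates 11, 12 and 22 are mostly blue.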

How the data were processed

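The authors deposited log2 expression values. The submitters' processing notes name RMA as the method, without a version. RMA brings all arrays to a common distribution, which hides any shift common to most transcripts, and it gives no detection call. The number of arrays limits the precision.

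The 64 control probe sets were set aside, leaving 45037. Symbols came from the platform annotation (34945 probe sets with 1, 932 with several, 9160 not named here). Groups follow the sample labels. The genotypes were tested with limma 3.58.1 in R 4.3.3, with no covariate, over all probe sets and over 18193 genes, a gene being read by its brightest probe set. Benjamini-Hochberg adjusted p under 0.05 was the threshold, and p-values measure the spread between mice. The code was tested on simulated data. Plots were drawn with matplotlib 3.10.9 under Python 3.11.15 with pandas 2.3.3. Promoters are from RefSeq, GRCm38.p6.

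The members, lists and tests were chosen with earlier results of these data known. Values for every mouse are given for 20 genes, the 10 of lowest p and others set by name. The alternatives changed the normalization, the filter on dim probe sets, the variance prior, the weights of arrays, the covariates (Gapdh difference, sex as read from expression, 4 marker lists), the way probe sets stand for a gene and the threshold, or left out arrays.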

Additional observations from a re-analysis of the deposited data

Results flagged for a closer look

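In 80 groups of 5 mice, the 36 genes and 4 class means in each genotype, a mouse stood apart from the other 4 of its group in 6, and chance alone gives about 1 in 20. Asns read 8.34 in wild-type replicate 14 against 7.63 to 7.71 in the others, and Herpud1 read 6.69 there against 6.39 to 6.43. Atf6 read 5.99 in Nkx2.2-/- replicate 43 against 5.63 to 5.73. Replicates 14 and 43 are the arrays with weak 5 prime Gapdh, whose part in these values was not tested. Chac1 read 6.87 in wild-type replicate 21 against 6.46 to 6.54, and 6.64 in Nkx2.2-/- replicate 22 against 6.48 to 6.52. Pdia6 read 7.601 in wild-type replicate 21 against 8.07 to 8.26 in the others.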

How the results depend on the processing

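No member passed the adjusted test under any alternative run, a threshold of 0.1 included. The count of member probe sets lower at an unadjusted p under 0.05, 6 with all arrays, was 14 with array weights (4.25% of all probe sets), 11 with the Gapdh difference (3.21%), 1 with the proliferation list (1.76%) and 0 with the meningeal list (1.89%) as a covariate, and 1 to 11 without single arrays, against 2.35% of all probe sets with all arrays. Member probe sets separated without overlap, with Nkx2.2-/- lower, numbered 0 to 4 without single arrays. The 4 were found without Nkx2.2-/- replicate 29, against 0.83% of all probe sets. When both arrays with weak 5 prime Gapdh were left out there was 1, against 1.41% of all. Manf, Calr, Pdia3, Hsp90b1, Creld2 and Hspa5 kept a change below 0 in all 23 alternatives.

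Changes near 0 turned sign. With array weights Atf6 was at -0.0082, Eif2ak3 at -0.044 and Asns at -0.039. With the Gapdh difference as a covariate Atf6 was at -0.018, Ern1 at -0.017, Eif2ak3 at -0.037, Asns at -0.055 and Ero1a at -0.0053. When both arrays with weak 5 prime Gapdh were left out, Ern1 was at -5.2e-05 and Eif2ak3 at -0.042. Asns was at -0.0061 with the cerebellar list and -0.11 with the proliferation list as a covariate, where Eif2ak3 was at -0.042. By the mean of all their probe sets, Ddit3 was at 0.021 and Asns at -0.024. Without single arrays Asns ranged from -0.10 to 0.16, Atf4 from -0.092 to 0.0046, Atf6 from -0.043 to 0.070, Chac1 from -0.093 to 0.0096, Ddit3 from -0.047 to 0.012, Eif2ak3 from -0.10 to 0.12, Ern1 from -0.050 to 0.075 and Ero1a from -0.024 to 0.093. The cause was not tested. No paired analysis was run because the labels give no litter or other pairing of the mice.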
